A study of Mus musculus with 20 samples.

Results

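Cyp11a1 and 4 genes that serve the same reaction, Fdx1, Fdxr, Tspo and Stard3, were followed as 5 of the 41115 genes in the count tables of a time course of mouse cells labelled spleen. The members were taken by gene symbol, and Cyp11a1 was chosen by its measured CPM over time, which fell in the stimulated arm and not in the untreated arm. Its own levels are therefore given as a description with no test, and tests are given for the 4 partners. The stimulated arm received lipopolysaccharide (LPS, a bacterial cell wall component), interleukin 4 (IL4) and transforming growth factor beta (TGFb), a cocktail the submitters name for stimulating AID, the enzyme that starts antibody class switching. The untreated arm received none of these agents. Each arm comes from 1 mouse per the series' design text, with 1 poly-A messenger RNA library at each of 10 times, 0 min, 15 min, 30 min, 1, 2, 3, 6, 12, 24 and 48 h, and strain, age and dose are not stated in the labels. The 0 min stimulated library carries the treatment label at a time of 0 min.

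The first step of steroid synthesis takes place inside mitochondria, where the cytochrome P450 encoded by Cyp11a1 cuts the side chain off cholesterol and leaves pregnenolone. The P450 receives electrons from ferredoxin, encoded by Fdx1, which is in turn reduced by ferredoxin reductase, encoded by Fdxr, and both carriers also serve other mitochondrial reactions. Tspo encodes a protein of the outer mitochondrial membrane that binds cholesterol, and Stard3 encodes a late endosomal protein with a cholesterol-binding START domain. Cyp11a1 is best known from adrenal gland and gonads, and its expression has also been described in mouse T helper 2 cells.

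Values are in CPM, counts divided by a library size that was scaled by the trimmed mean of M values (TMM) and brought to a total common to all libraries. Library totals ran from 36873155 to 60918651 counts, and the smallest count of any member in any library was 623, whose exact 95% Poisson interval of 575 to 674 covers counting error only. Times were grouped into an early phase (15 min, 30 min and 1 h), a middle phase (2 to 6 h) and a late one (12 to 48 h), so that the 3 times of a phase stood as replicates, and p-values measure the spread between libraries of 1 mouse per arm. With 1 mouse per arm, treatment and mouse cannot be told apart in any comparison of the arms. At no time did the libraries of both arms share a sequencing lane, so arm and lane at a single time cannot be told apart. The B cell list had 10 of 12 genes at a mean of at least 1 CPM, with a summed level of 4020 to 4900 CPM in stimulated and 3770 to 4740 CPM in untreated libraries. Of the 12 T cell genes, 4 in the stimulated and 3 in the untreated arm had a mean of at least 1 CPM, and the list summed to between 40.6 and 79.2 CPM in stimulated and 47.4 and 56.4 CPM in untreated libraries. Most of that sum was Cd5, at 31.9 to 70.4 CPM in stimulated and 37.3 to 48.6 CPM in untreated libraries, while the defining T cell genes Cd3d, Cd3e and Cd3g stayed under 1 CPM in every library. All 8 neutrophil genes and all 11 erythroid genes stayed under 1 CPM in every library, and the B cell genes H2-Aa and Cr2 were also near 0. Of the 15 mast cell and basophil genes, 1 (Hdc) reached a mean of 1 CPM, as did 1 of the 10 adrenal and gonad genes (Star). The Th2 list summed to between 4.55 and 53.6 CPM in stimulated and between 3.14 and 7.06 CPM in untreated libraries. Ccr4 alone reached 50.3 CPM in a stimulated library. The macrophage and monocyte list summed to between 48.9 and 131 CPM in stimulated and 25.5 and 61.8 CPM in untreated libraries. Vcam1 reached 65.4 CPM in stimulated and 0.622 CPM in untreated libraries, Csf1r 42 and 30.3 CPM, and Emr1 35.5 and 8.56 CPM. Emr1 varied widely among the late stimulated libraries, from 2.49 to 35.5 CPM. The maxima of Cd68 (21.7 CPM in stimulated and 21.9 CPM in untreated libraries) and Itgam (1.92 and 1.8 CPM) were alike in the arms. Of the 12 genes of this list, 7 in the stimulated and 8 in the untreated arm stayed under 1 CPM in every library. The plasma cell list summed to 1330 to 1900 CPM in stimulated and 1290 to 1760 CPM in untreated libraries, with Sdc1 and Tnfrsf17 under 1 CPM throughout. The dendritic cell list, with 4 of 8 genes at a mean of at least 1 CPM in each arm, summed to 41.8 to 76.8 CPM in stimulated and 33.5 to 68 CPM in untreated libraries. The stroma and endothelium list summed to 5.68 to 16.2 CPM in stimulated and 5.69 to 15.4 CPM in untreated libraries. The part of these markers in the results was not tested. In bulk RNA, fewer cells of a type and less RNA per cell cannot be told apart.

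Upstream sequence was available for 4 of the 5 members among the promoter windows of RefSeq (GRCm38.p6), which run from 250 bases before to 50 bases after a transcript start. Cyp11a1 had 2 windows, and the one with a nuclear receptor half-site is shown with that of Fdx1, its electron donor, since the level of Cyp11a1 fell and Fdx1 was not called in the same libraries. Capitals mark the half-site AGGTCA, the letters that receptors of the Nr5a family contact, searched on both strands.
Cyp11a1, chr9:58014702-58015001, plus strand: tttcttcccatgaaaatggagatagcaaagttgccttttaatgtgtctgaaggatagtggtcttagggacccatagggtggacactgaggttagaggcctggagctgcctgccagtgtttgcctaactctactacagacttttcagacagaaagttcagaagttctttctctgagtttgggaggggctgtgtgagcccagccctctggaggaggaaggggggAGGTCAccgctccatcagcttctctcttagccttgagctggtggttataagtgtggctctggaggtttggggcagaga
Fdx1, chr9:51963553-51963852, minus strand: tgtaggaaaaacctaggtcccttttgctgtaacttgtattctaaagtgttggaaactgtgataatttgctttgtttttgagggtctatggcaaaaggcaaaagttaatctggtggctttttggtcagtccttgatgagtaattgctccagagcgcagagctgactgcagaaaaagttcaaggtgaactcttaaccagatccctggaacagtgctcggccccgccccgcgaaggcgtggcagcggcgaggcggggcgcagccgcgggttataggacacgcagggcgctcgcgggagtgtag
AGGTCA began 28 bases before the RefSeq start in that Cyp11a1 window and was in none of the other 4 member windows. The GENCODE annotation used below begins Cyp11a1 at base 58006411. This window therefore lies inside that gene span, and the other Cyp11a1 window, from base 57997774, lies before it. It was found in 16.3% of the 32851 windows of all genes. The full cyclic AMP response element TGACGTCA was in no member window and in 1.79% of all windows. TATAA or its reverse complement TTATA was in both printed windows and in 24.9% of all windows. The 2 matches in Cyp11a1 overlap, 1 on each strand, and the match in Fdx1 reads TTATA. Counting the start as base 1, they begin at bases 17 and 18 in Cyp11a1 and 17 in Fdx1, after the start. A match is a description of these letters and was not tested for binding.

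Cyp11a1 (ENSMUSG00000032323, chr9:58006411-58027023, plus strand, GENCODE vM21 on GRCm38) kept close to its starting level for 3 h in both arms and then fell in the stimulated arm. From 0 min to 48 h in order of time, the stimulated libraries had 84.5, 91.4, 90.4, 90.7, 85.9, 79.9, 72.1, 47.8, 20.5 and 11.5 CPM. The untreated libraries had 86.8, 92.9, 85.8, 91.6, 83.4, 84.5, 93.4, 90.2, 81.3 and 80.6 CPM at the same times. The stimulated libraries up to 2 h lay among the untreated ones, the one at 3 h lay just under the lowest untreated library, and those from 6 h on were below all untreated libraries by a wider margin.

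Set against the untreated library of the same time, the stimulated level of Cyp11a1 was 94.6% at 3 h, 77.2% at 6 h, 53% at 12 h, 25.2% at 24 h and 14.2% at 48 h. At 48 h this was 13.6% of the level of the stimulated arm at 0 min, and the untreated arm stood at 92.8% of its own 0 min level. The decline per hour on the log2 scale was alike from 6 to 12 h (-0.099) and from 12 to 24 h (-0.102) and shallower from 24 to 48 h (-0.035), each step resting on 1 library at either end. The late phase averaged 26.6 ± 18.9 CPM in the stimulated arm and 84 ± 5.36 CPM in the untreated arm (SD, n = 3 times each), a fitted log2 fold change of -1.89, or 3.7-fold lower. In the early phase the fitted log2 fold change was -0.01, with means of 90.8 ± 0.535 CPM in stimulated and 90.1 ± 3.77 CPM in untreated libraries (SD, n = 3 times each).

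**Figure D1:**
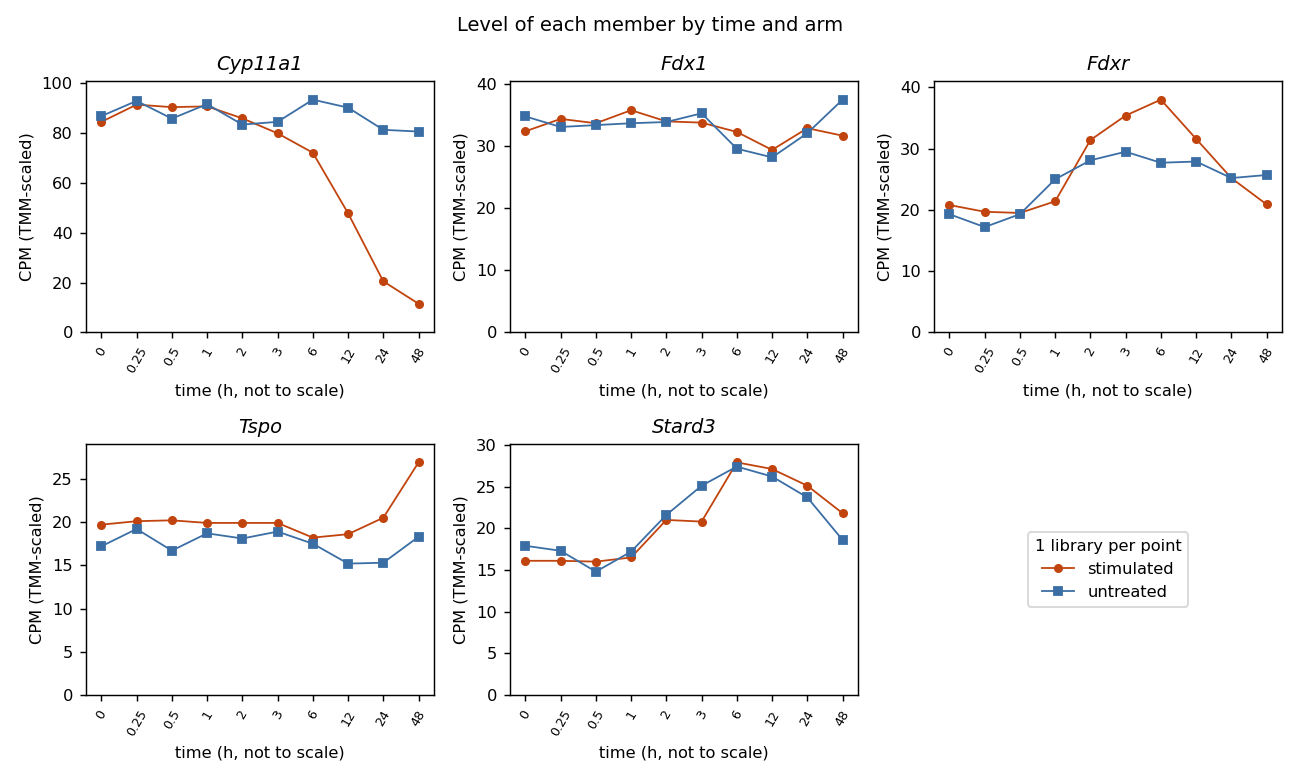
Level of the 5 members in CPM (vertical axes from 0) against time in hours (not to scale), with 1 point per library, stimulated in orange circles and untreated in blue squares. Cyp11a1 ends at 11.5 CPM in the stimulated arm and at 80.6 CPM in the untreated arm. Fdxr and Stard3 are higher from 2 to 24 h than at 0 min in both arms. At 48 h stimulated Fdxr and untreated Stard3 are near their 0 min levels.

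The spread of Cyp11a1 in each arm is part of what it was chosen by and is given as a description. Between its lowest and highest library, Cyp11a1 ranged over 2.94 log2 units in stimulated and 0.21 log2 units in untreated libraries. The medians of all 12139 genes tested were 0.94 and 0.81 log2 units in those arms. The mean level of Cyp11a1 over the 20 libraries, 77.3 CPM, was above that of 72% of genes tested.

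**Figure D2:**
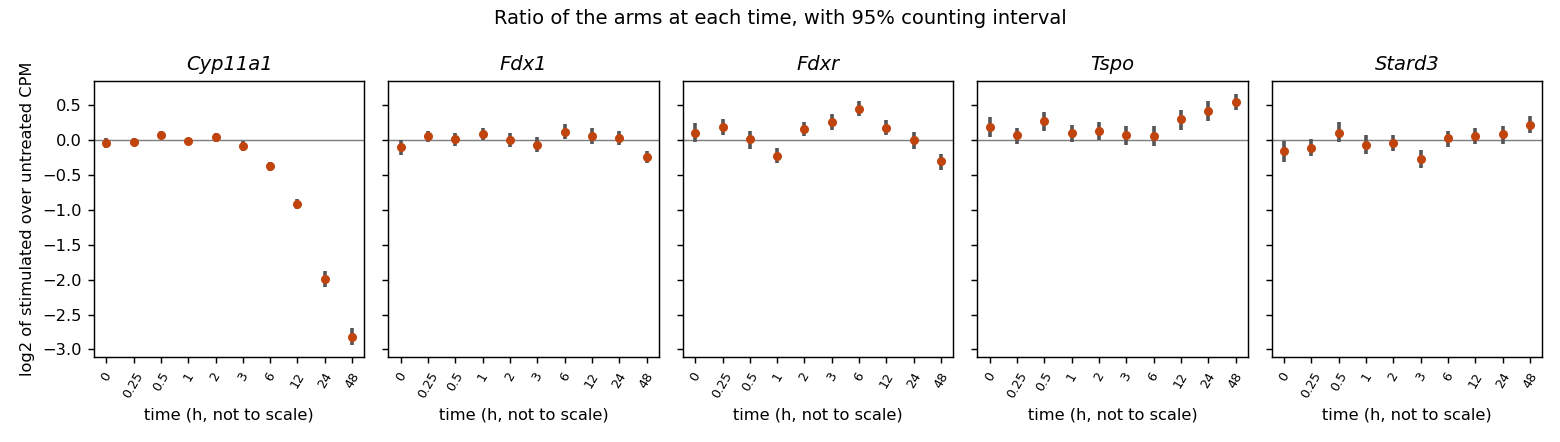
Log2 of the stimulated over the untreated CPM of each member at each time in hours (not to scale), as points with vertical bars for the 95% counting interval of the 2 counts. Cyp11a1 is near 0 up to 3 h and then declines at each time, and the 4 partners stay between -0.5 and 0.6.

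Ferredoxin, the direct electron donor, was not called in any comparison. Fdx1 (ENSMUSG00000032051, chr9:51943306-51963556, minus strand) had 29.4, 32.9 and 31.7 CPM at 12, 24 and 48 h in stimulated cells, against 28.2, 32.1 and 37.5 CPM in untreated cells. The late ranges overlap, and the untreated library at 48 h is the highest of the 20. In the late phase the arms differed by -0.06 ± 0.07 on the log2 scale (SE, adjusted p = 0.49, edgeR quasi-likelihood test with Benjamini-Hochberg adjustment), with a 95% interval of -0.21 to 0.08. Fdx1 also passed the threshold of 0.05 in neither arm between the early and late phases, with -0.11 ± 0.1 in the stimulated arm (adjusted p = 0.36) and -0.02 ± 0.1 in the untreated arm (adjusted p = 0.87, same edgeR test). Over all 20 libraries it ran from 29.4 to 35.8 CPM in stimulated and from 28.2 to 37.5 CPM in untreated cells.

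Ferredoxin reductase, which passes electrons from NADPH to ferredoxin, rose in both arms up to the middle phase. At 48 h it was back at its 0 min level in the stimulated arm (20.9 against 20.8 CPM) and still above it in the untreated arm (25.7 against 19.3 CPM). Fdxr (ENSMUSG00000018861, chr11:115268024-115277050, minus strand) had 31.4, 35.4 and 38 CPM at 2, 3 and 6 h in stimulated cells, against 28.1, 29.5 and 27.7 CPM in untreated cells. All 3 stimulated libraries of this middle phase lay above the untreated ones, and the share of all genes separated in this way was not counted. The log2 fold change was 0.27 ± 0.1 (SE), which did not pass the threshold (adjusted p = 0.069, edgeR quasi-likelihood test). None of the 4 partners was called in the middle phase, where 20.5% of the 12042 genes tested were called. In the late phase Fdxr had 31.6, 25.2 and 20.9 CPM in stimulated cells and 27.9, 25.2 and 25.7 CPM in untreated cells, and the groups overlapped (log2 fold change -0.05 ± 0.1, adjusted p = 0.71). The early values were 19.7, 19.5 and 21.4 CPM in stimulated and 17.2, 19.3 and 25 CPM in untreated cells. From the early to the late phase the log2 fold change was 0.39 ± 0.14 in the stimulated arm (adjusted p = 0.032) and 0.37 ± 0.14 in the untreated arm (adjusted p = 0.049, edgeR quasi-likelihood test in both). Each of these calls was lost in 7 of 11 alternative settings, 4 of them with a time left out.

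Of the 2 genes on the side of cholesterol supply, Tspo differed between the arms and Stard3 moved with time. Tspo (ENSMUSG00000041736, chr15:83563592-83574203, plus strand) had 18.6, 20.5 and 26.9 CPM at 12, 24 and 48 h in stimulated cells, against 15.2, 15.3 and 18.3 CPM in untreated cells. The late groups did not overlap, and the stimulated library at 48 h stood apart as the highest. The early groups did not overlap either (19.9 to 20.2 CPM in stimulated and 16.7 to 19.2 CPM in untreated cells), while the middle groups did. Such separation was not particular to Tspo, since the early groups of Fdx1 and the middle groups of Fdxr did not overlap and were not called. Tspo was higher in the stimulated library at every time, from 1.04-fold at 6 h to 1.47-fold at 48 h. The share of all genes without overlap was not counted. Tspo was 1.33-fold higher in stimulated cells in the late phase, or 0.41 ± 0.08 on the log2 scale (SE, 95% interval 0.25 to 0.58, adjusted p = 0.0017, edgeR quasi-likelihood test), and it was the only one of the 4 partners called there, where 36.1% of all genes tested were called and 17.8% were called higher. Without the 48 h pair the log2 fold change was 0.33 (adjusted p = 0.016). Tspo was also higher in the stimulated library before any time had passed, with 19.7 CPM in the stimulated and 17.2 CPM in the untreated library at 0 min. Taken relative to this 0 min pair, a setting chosen after seeing the data, the late log2 fold change was 0.26 and the call was lost (adjusted p = 0.36). The late difference also did not pass when tested against the early one (0.29 ± 0.11, adjusted p = 0.083), a contrast in which 0 of the 4 partners and 19.7% of all genes were called. At an unadjusted p under 0.05, Tspo was the one partner there (p = 0.021), and DESeq2 called 0 of 4. Tspo overlaps Mcat on the opposite strand by 196 bases, and whether the counts used strand is unknown. Mcat itself had a late log2 fold change of 0.07 (adjusted p = 0.51, same edgeR test).

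Stard3 (ENSMUSG00000018167, chr11:98358368-98381112, plus strand) had 27.1, 25.1 and 21.8 CPM at 12, 24 and 48 h in stimulated cells, against 26.2, 23.7 and 18.6 CPM in untreated cells. The late ranges overlapped, and the arms differed by 0.11 ± 0.08 on the log2 scale (SE, adjusted p = 0.32, edgeR quasi-likelihood test). Its early values were 16.1, 16 and 16.5 CPM in stimulated and 17.3, 14.8 and 17.2 CPM in untreated cells, below every late value of the same arm. From the early to the late phase Stard3 rose by 0.63 ± 0.15 on the log2 scale in the stimulated arm (adjusted p = 0.0021) and by 0.48 ± 0.15 in the untreated arm (adjusted p = 0.016, edgeR quasi-likelihood test in both). The call in the untreated arm was lost when 30 min, 12 h or 24 h was left out (adjusted p = 0.095, 0.079 and 0.068, same edgeR test). Stard3 peaked at 6 h in both arms, with 27.9 CPM in stimulated and 27.4 CPM in untreated cells. With Fdxr it made 2 of 4 partners called higher over time in each arm, where 54.9% of the 12139 genes tested were called in the stimulated arm (29.2% higher) and 42.6% in the untreated arm (22.6% higher).

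**Figure D3:**
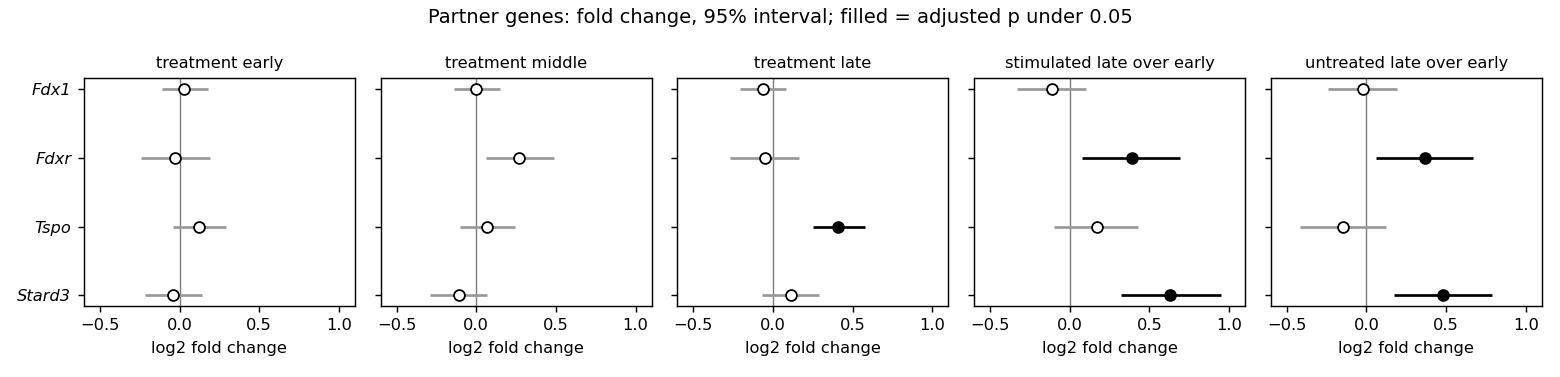
Log2 fold change of the 4 partners (points) with 95% intervals (lines) in 5 comparisons: stimulated over untreated in the early, middle and late phases, and late over early within each arm. Filled points passed an adjusted p of 0.05: Tspo in the late phase (0.41), and Fdxr and Stard3 over time in both arms.

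In the early phase 0 of 4 partners were called, against 2.24% of all genes tested (270 genes), with adjusted p-values from 0.46 for Tspo to 0.94 for Fdxr in edgeR's quasi-likelihood test. None of the partners had an unadjusted p under 0.05 in that phase, and DESeq2 also called 0 of 4 there and in the middle phase.

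Per kilobase of annotated exon, the order of the members changed along the course in both arms. Only in stimulated libraries did Cyp11a1 fall under every other member. In untreated libraries Tspo was above Cyp11a1 at 3 h (18 against 17.6 CPM per kb) and at 48 h (17.4 against 16.8). In untreated libraries the median levels were 18 CPM per kb for Cyp11a1, 16.9 for Tspo, 10.9 for Fdx1, 9.07 for Fdxr and 5.65 for Stard3. The ranges of Cyp11a1 and Tspo overlapped there, as did those of Fdx1 and Fdxr and of Fdxr and Stard3, while Tspo lay above Fdx1 in every library (14.5 or more against 12.1 or less CPM per kb). In stimulated libraries Cyp11a1 ran from 2.39 to 19 CPM per kb, and its lowest value, at 48 h, was under the lowest of every other member. The level of Cyp11a1 per kb was 1.69 times that of Fdx1 in stimulated cells at 0 min and 0.234 times that of Fdx1 at 48 h. In untreated cells the same ratio was 1.62 at 0 min and 1.39 at 48 h. Exon lengths were unions over all annotated transcripts, 4804 bases for Cyp11a1, so levels per kb depend on which transcripts the cells used.

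The genes that stand next to side-chain cleavage in steroid-making tissue were low or not detected. Star, which carries cholesterol to the inner mitochondrial membrane, ran from 3.56 to 8.07 CPM in stimulated and from 4.42 to 9.27 CPM in untreated cells (late log2 fold change 0.12 ± 0.11, adjusted p = 0.45, edgeR quasi-likelihood test). Hsd3b1 to Hsd3b6, of a family that includes the enzymes turning pregnenolone into progesterone, had 0 counts for all 6 genes in all 20 libraries. How reads shared between these near-identical copies were counted is unknown. Cyp17a1, the next P450 towards androgens, had 8 counts over all stimulated and 10 over all untreated libraries. Cyp21a1 had 0 counts. At these depths 3 counts in 1 library, a floor set for description, correspond to 0.0492 to 0.0814 CPM, and levels under that rest on very few counts or none. The second ferredoxin, listed as Fdx1l, ran from 1.95 to 2.86 CPM in stimulated and from 1.73 to 3.01 CPM in untreated cells, with a late log2 fold change of -0.15 ± 0.18 (adjusted p = 0.55, same edgeR test).

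Of the 20 listed steroid enzymes in the tables, 3 were expressed enough to be tested, and 1 was called in the late phase. Hsd11b1, which regenerates active glucocorticoid from its inactive form, averaged 0.702 ± 0.435 CPM in stimulated and 1.2 ± 0.334 CPM in untreated cells in the late phase (SD, n = 3 times each), and was 1.81-fold lower (log2 fold change -0.85 ± 0.28, adjusted p = 0.033, edgeR quasi-likelihood test). Among the other carriers and mitochondrial P450 genes, 5 of 9 were tested, with 1 called higher and 1 lower. Cyb5r3, a cytochrome b5 reductase, was 3.23-fold higher, with 269 ± 39 CPM in stimulated and 82.1 ± 2.21 CPM in untreated cells (SD, n = 3 times each; adjusted p = 6.9e-06, edgeR). Por, the electron donor of microsomal P450 enzymes, had a log2 fold change of -0.18 ± 0.05 (adjusted p = 0.017, edgeR). The late groups of Por and of Hsd11b1 overlapped. The list medians were 0.21 for the steroid enzymes and -0.15 for the carriers, against -0.004 for all genes tested, and the calls stand beside 17.8% called higher and 18.3% called lower among all genes.

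**Figure D4:**
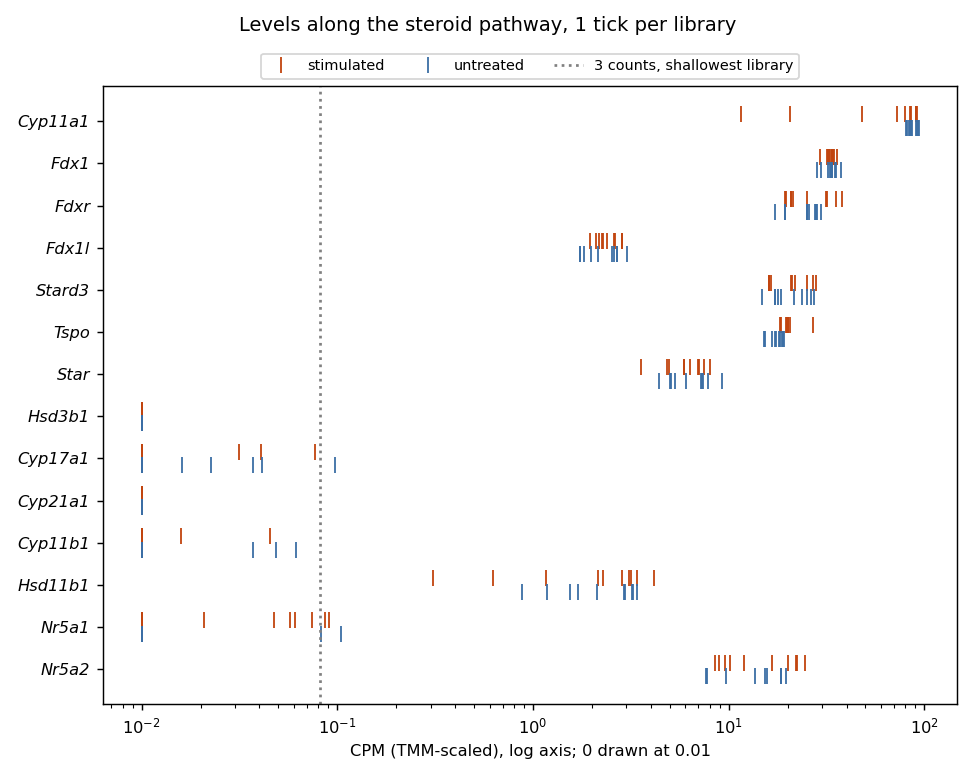
Levels in CPM on a log axis of Cyp11a1, its partners, and other genes of steroid synthesis and its regulation, with 1 tick per library, stimulated above untreated; values of 0 are drawn at 0.01. Members lie between 11.5 and 93.4 CPM, Nr5a2 between 7.62 and 24.6 CPM and Star between 3.56 and 9.27 CPM. Hsd3b1, Cyp17a1, Cyp21a1, Cyp11b1 and Nr5a1 lie near or under the floor of 3 counts (dotted line).

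Of the 23 tested genes of cholesterol uptake, storage and transport, 3 were called higher and 3 lower in the late phase, against 17.8% called higher and 18.3% lower among all genes tested. The list median was 0.02 on the log2 scale. Abca1, which exports cholesterol, averaged 12.8 ± 4.2 CPM in stimulated and 24.7 ± 1.16 CPM in untreated cells (SD, n = 3 times each), 2.01-fold lower (adjusted p = 0.00029, edgeR quasi-likelihood test). Scarb1, a receptor for high-density lipoprotein, and Lipa, the lysosomal acid lipase, were each 1.41-fold lower (adjusted p = 0.0018 and 0.00024, edgeR). Npc1, which moves cholesterol out of lysosomes, was 1.28-fold higher, with 51.8 ± 5.04 CPM in stimulated and 40.3 ± 6.08 CPM in untreated cells (SD, n = 3 times each; adjusted p = 0.0027, edgeR).

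Of 17 tested genes described as regulators of Cyp11a1 or of steroid synthesis in other tissues, 2 were called higher and 3 lower in the late phase, against 17.8% called higher and 18.3% lower among all genes tested. The list median was 0.02 on the log2 scale. Nr5a1, the steroidogenic factor that drives Cyp11a1 in adrenal and gonad, reached at most 0.0906 CPM in stimulated and 0.104 CPM in untreated libraries. Its relative Nr5a2 averaged 13.9 ± 6.98 CPM in stimulated and 14.6 ± 4.52 CPM in untreated cells in the late phase (SD, n = 3 times each), with overlapping groups and no call (adjusted p = 0.68, edgeR quasi-likelihood test). Creb1, the transcription factor that answers cyclic AMP, was 1.44-fold higher (adjusted p = 4.9e-05). Prkaca, a catalytic subunit of protein kinase A, was 1.21-fold higher (adjusted p = 0.0096, edgeR), with overlapping groups. Runx2, a Runt-domain transcription factor, was 1.51-fold lower with overlapping groups (adjusted p = 0.0037, edgeR). Crem, a relative of Creb1, was 1.36-fold lower (adjusted p = 0.02, edgeR).

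Of the 6 tested steroid receptors and glucocorticoid-responsive genes, 1 was called higher and 2 lower in the late phase, against 17.8% called higher and 18.3% lower among all genes tested. The list median was -0.15 on the log2 scale. Nr3c1, the glucocorticoid receptor, was 1.22-fold lower (adjusted p = 0.0025, edgeR quasi-likelihood test). Tsc22d3, a well-known target gene of this receptor, differed in opposite directions by phase. In the late phase it was 1.38-fold higher (adjusted p = 0.0019, edgeR), with overlapping values of 27.4 ± 14.2 CPM in stimulated and 19.1 ± 7.8 CPM in untreated cells (SD, n = 3 times each). In the middle phase it was 1.59-fold lower (adjusted p = 0.00071, edgeR), with 16.5 ± 1.2 CPM in stimulated and 25.8 ± 3.08 CPM in untreated cells (SD, n = 3 times each). Per1, another target and also a clock gene, was 1.71-fold lower in the late phase (adjusted p = 0.00022, edgeR). Per1 had 35.3 ± 7.16 CPM in stimulated and 59.4 ± 5.71 CPM in untreated cells in the late phase, and in the early phase 110 ± 7.7 CPM in stimulated and 83.4 ± 11.8 CPM in untreated cells (SD, n = 3 times each).

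The partners were not among the genes most like Cyp11a1. Pearson's r of log2(CPM + 0.5) with Cyp11a1 over the 20 libraries, a description since these share 2 mice and 1 course, was 0.202 for Fdx1, 0.012 for Fdxr, -0.304 for Stard3 and -0.659 for Tspo. The 8 named genes with the highest r among 12138 were Dgkg (0.967), Pld4 (0.952), Chchd10 (0.933), Pik3cg (0.927), Hepacam2 (0.92), Vps41 (0.916), Cxcr6 (0.912) and Irgm1 (0.909). By rank correlation 1 of these 8 stayed among the first 8.

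Dgkg, a diacylglycerol kinase, had 0.959 CPM in stimulated and 4.97 CPM in untreated cells at 48 h, with 6.7 and 6.49 CPM in those arms at 0 min. Pld4, an endolysosomal nuclease, had 23.5 CPM in stimulated and 80.4 CPM in untreated cells at 48 h. Pik3cg, the catalytic subunit of phosphoinositide 3-kinase gamma, had 15 CPM in stimulated and 146 CPM in untreated cells at that time. All 8 genes were lower in the stimulated library at both 24 and 48 h, which their choice by likeness to Cyp11a1 favours, and their untreated courses differed: Pld4 and Dgkg ended under their 0 min level in untreated cells, while Pik3cg and Hepacam2 ended above it. Vps41, a subunit of a lysosomal tethering complex, had the smallest late log2 fold change of the 8 (-0.3), and Hepacam2, an adhesion molecule, the one farthest from 0 (-2.69).

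**Figure D5:**
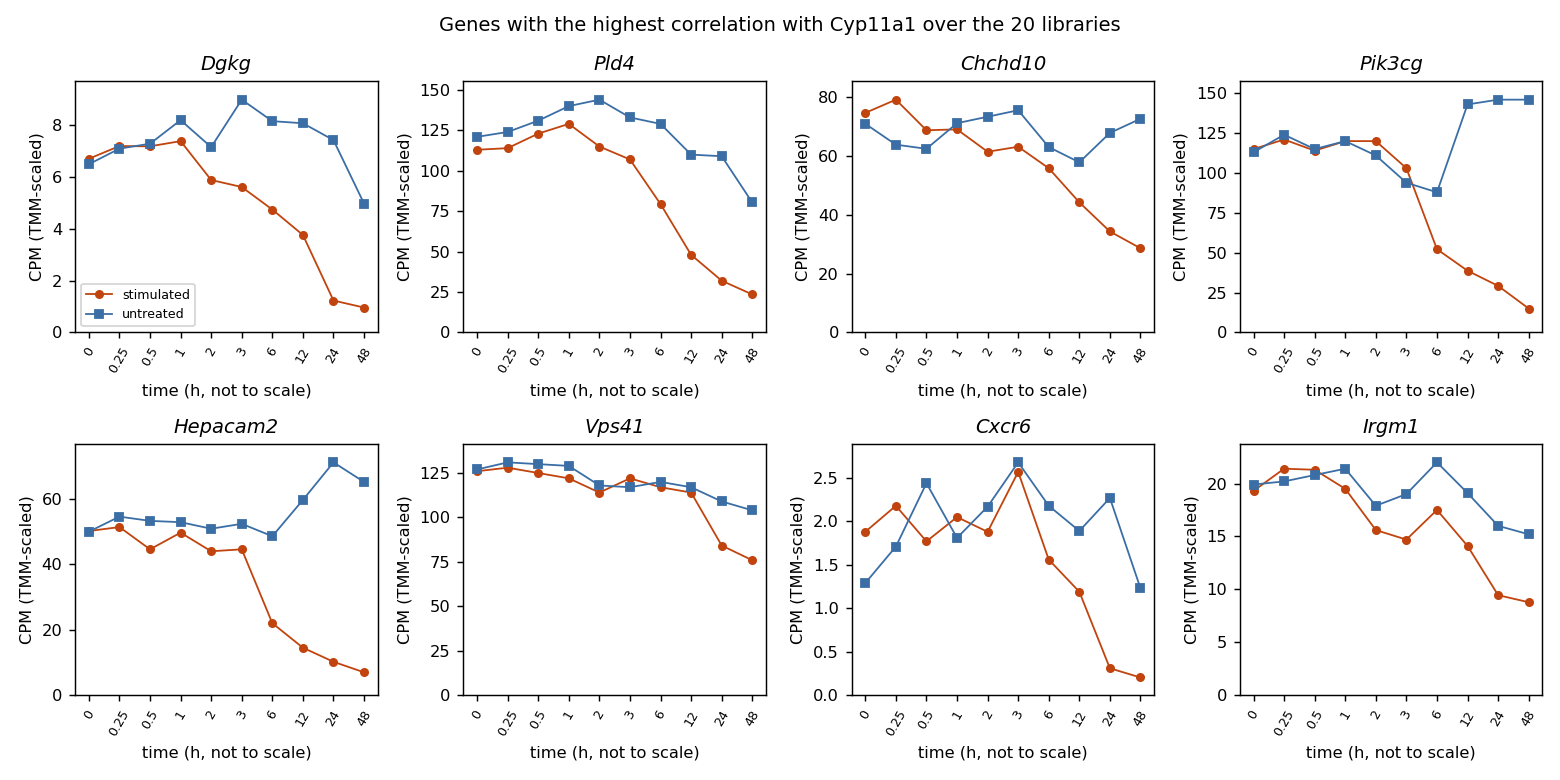
Level in CPM (vertical axes from 0) against time in hours (not to scale) of the 8 genes with the highest correlation with Cyp11a1, with 1 point per library, stimulated in orange circles and untreated in blue squares. All 8 are lower in stimulated than in untreated cells at 24 and 48 h, and the untreated courses of Pik3cg and Hepacam2 rise after 6 h.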

How the data were processed

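The deposited values are raw counts per gene, 1 table for each of the 20 libraries. The submitters' processing notes name STAR, HTSeq and the builds GRCm38.p3 and mm10. Not given in the sources used here are versions, annotation, strand setting and the handling of reads with several matches. Small RNA was not analysed here, and a sample sheet by the submitters was not used.

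Counts were analysed in R 4.3.3 with edgeR 4.0.16 by its quasi-likelihood F-test with TMM scaling, with p-values adjusted by the Benjamini-Hochberg method over all genes tested and a threshold of 0.05. Genes that reached 1 CPM in 3 or more libraries were tested. Stimulated and untreated libraries were compared with time as a factor and a treatment term per phase, leaving out 0 min (12042 genes). Early and late phases within an arm were compared in a fit of all 20 libraries by arm and phase (12139 genes). The SE is the log2 fold change over the square root of F. Ratios at single times have no test, and 0.5 CPM was added where a log2 was taken for correlations. Scripts were tested on simulated counts with 200 changed genes. DESeq2 1.42.0, other scalings, no filter, lane, and leaving out each time in turn were alternatives.

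Members and gene lists were chosen with earlier results of these data known. From each pathway list, up to 4 genes called in the late phase with a mean of at least 1 CPM were named by size of log2 fold change. Members, Star, the Hsd3b family, Cyp17a1, Nr5a1 and the second ferredoxin were named whatever their values. The 8 genes most like Cyp11a1 leave out unnamed gene models and antigen receptor segments. Other genes (Cyp21a1, Nr5a2, Mcat and markers) were named after their values were seen. Positions are from GENCODE vM21.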

Additional observations from a re-analysis of the deposited data

Results flagged for a closer look

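Tspo in the stimulated library at 48 h (26.9 CPM) stood apart from the other 9 stimulated libraries, with a gap to the next library of 0.735 of the whole range of the arm. It was the 1 of 10 groups of members by arm with such a library, and chance flags about 1 in 20 groups of independent samples, which 10 times of 1 course are not. The late difference without the 48 h pair was 0.33 on the log2 scale.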

How the results depend on the processing

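Of 228 log2 fold changes of the partners under the alternatives, 189 kept their direction and side of the threshold, 18 lost a call, 3 gained one, and 18 changed sign, each of them in a comparison where the partner was not called. Relative to the 0 min pair, the sign changes were to 0.07 for late Fdx1, 0.07 for middle and 0.14 for early Stard3, and -0.1 for middle and -0.05 for early Tspo. With library totals as the only scaling, middle Fdx1 was at -0.07 and middle Tspo at 0, and middle Fdx1 was at 0 with RLE size factors and DESeq2. With a time left out, Fdx1 ran from -0.05 to 0.05 in the middle phase, from -0.11 to 0.02 in the late phase and from -0.13 to 0.08 over time in the untreated arm. Fdxr ran from -0.12 to 0.08 early, from -0.16 to 0.07 late and from -0.13 to 0.1 for late minus early, early Stard3 from -0.11 to 0.01, and Tspo over time in the stimulated arm from -0.01 to 0.28. The lost calls were those of Fdxr and Stard3 over time and that of Tspo relative to the 0 min pair. Gained were Fdxr in the middle phase without a filter on low counts (0.27, adjusted p = 0.032), Tspo in late minus early without 12 h (0.36, adjusted p = 0.042) and Tspo over time in the untreated arm without 48 h (-0.24, adjusted p = 0.048), all by edgeR. The count of genes called in the early phase (270) was 747 with no filter and 426 with DESeq2, and 9 to 76 with a time left out. The middle count (2463) was 899 to 1699 with a time left out, the late minus early count (2377) was 1372 to 2622 (without 0.25 h and without 12 h) and 1526 with lane as a factor, and the untreated late over early count (5176) was 2944 to 6014. Relative to the 0 min pair, chosen after seeing the data, the counts were 0 early, 43 middle and 847 late. That fit rests on 1 pair at 0 min. With library totals as the only scaling, the share of calls that were higher was 25% in the middle phase (49.9% as reported). It was 40.4% in the late phase (49.4%), 40.1% for stimulated late over early (53.3%) and 39.1% for untreated late over early (53%). In the comparisons over time within an arm, the median of all genes moved to -0.135 and -0.124. Rank correlation kept 1 of the 8 genes most like Cyp11a1. The log2 ratio of Cyp11a1 at 48 h was -2.76 with 0.5 CPM added and -2.61 with 2 CPM added. The cause of these changes was not tested. Lane could not be fitted with the treatment difference of the early, middle and late phases. The treatment fits paired the arms by time, and beyond that no paired analysis was possible because the labels number no replicates. Depth was not limiting for the members, whose smallest count was 623.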

Other observations

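The nearest protein-coding neighbours of Cyp11a1 were both lower in stimulated than in untreated cells at 12, 24 and 48 h, with no test run on them. Sema7a, which encodes a membrane semaphorin 43546 bases before it, ran from 54 to 230 CPM in stimulated and from 60.9 to 201 CPM in untreated cells, and was highest at 2 h in both arms. At 12, 24 and 48 h it had 79.2, 74.7 and 86.2 CPM in stimulated cells, against 153, 148 and 97.4 CPM in untreated cells. Ccdc33, 1654 bases after it on the opposite strand, had 0.404, 0.214 and 0.536 CPM in stimulated cells at 12, 24 and 48 h, against 0.537, 0.405 and 0.951 CPM in untreated cells. These rest on few counts, 19, 9 and 29 in stimulated and 25, 18 and 51 in untreated libraries. At 0 min Ccdc33 had 2.5 CPM in stimulated and 2.35 CPM in untreated cells, so its level fell in both arms. The share of all genes that were lower at these times was not counted. The long noncoding gene Gm17322 overlaps the annotated span of Cyp11a1 by 1041 bases on the same strand and was not analysed here.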
